A study of Mus musculus with 5 samples.

Results

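The genes described here are the nuclear-encoded subunits of the oxidative phosphorylation (OXPHOS) machinery. They were taken from the deposited gene annotation by symbol, as all Nduf subunit genes (Ndufa, Ndufb, Ndufc, Ndufs, Ndufv), Sdha to Sdhd, all Uqcr genes, Cox4 to Cox8 genes and all Atp5 genes, with pseudogene symbols left out. The rule gave 84 of 32285 genes, and no measured value entered it. The measurements were single-nucleus RNA sequencing (10x Genomics 3′ counting) of mouse brain nuclei, labelled as hippocampus, that were sorted as DAPI+ NeuN- Olig2-. There were 2 libraries of Cgas wt/R241E mice (R241E) and 3 of Cgas wt/wt mice (WT). All mice carried Tmem119-creERT2, a tamoxifen-inducible Cre driven by a promoter used mainly for microglia, and R241E is a point mutation of the DNA sensor cGAS that weakens its tethering to nucleosomes. The study asked what a cGAS freed from this tether does in microglia. The mice received tamoxifen as young adults. Libraries are numbered within their group, and the treatment text shared by all samples assigned none of them to a drug.

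The inner mitochondrial membrane holds 4 electron-transfer complexes and an ATP synthase. Complex I (NADH dehydrogenase) and complex II (succinate dehydrogenase) feed electrons to ubiquinone, complex III passes them to cytochrome c, complex IV (cytochrome c oxidase) passes them to oxygen, and complex V (ATP synthase) uses the resulting proton gradient to make ATP. The mitochondrial genome encodes a few of the subunits, and the nuclear genome encodes the rest, which are translated on cytosolic ribosomes and imported. Some complex IV and complex V subunits exist as isoforms whose use differs between tissues. In nuclei, mature mRNA and mitochondrial transcripts are in part material carried over from the cytoplasm. The mitochondrial-genome genes (symbols beginning with mt-) were therefore measured beside the nuclear ones, and their values are given for microglia and for some other classes.

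The 5 libraries held 9748 nuclei and between 4183709 and 10130667 unique molecular identifiers (UMIs). Limits on genes, UMIs and mitochondrial share kept 9505 nuclei in 25 clusters, all of which were named from marker genes, and 5378 nuclei were microglia. The classes are names given here to rebuilt clusters. Cgas in microglia was at 83.2 and 87.9 CPM (the gene's count scaled to 1000000 UMIs of the class) in R241E 1 and R241E 2, and at 66.7, 72.4 and 74.4 CPM in WT 1, WT 2 and WT 3. A count of the gene does not read the point mutation, so this checks no label. There were 13 barcodes that occurred in 2 libraries.

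A promoter table from RefSeq (build GRCm38.p6, the same assembly as mm10) held an entry for 68 of the 84 genes, reaching from 250 bases before the start of transcription to 50 bases after it. OXPHOS promoters are known for sites of NRF1 and of ETS-family factors, and 3 short strings were searched on both strands. The NRF1 core GCATGCGC stood in 14.7% of the OXPHOS genes with an entry and in 3.05% of all 27025 genes in the table. The ETS core CCGGAAG stood in 25% against 9.93%. The YY1 core AAGATGG stood in 16.2% against 7.28%. Of the OXPHOS genes that rose in R241E microglia, 13.6% held the NRF1 string and 27.3% the ETS string, and of those tested but not called the shares were 16.3% and 25.6%. The letters were thus about as frequent in genes that rose as in genes that were not called, with 22 and 43 genes behind the shares. Pairs of 100-base stretches from before the start of transcription are printed because they show the same string in a gene that rose and in one that was not called. The capitals mark the searched string or its reverse complement. The gene that rose is first in each pair.
Atp5k, NRF1 string, chr5:108434400-108434499, minus strand: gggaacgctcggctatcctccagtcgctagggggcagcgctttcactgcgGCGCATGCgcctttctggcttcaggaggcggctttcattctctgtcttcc
Sdhb, NRF1 string, chr4:140961171-140961270, plus strand: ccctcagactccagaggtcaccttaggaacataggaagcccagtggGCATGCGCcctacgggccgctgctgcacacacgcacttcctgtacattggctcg
Atp5h, ETS string, chr11:115419920-115420019, minus strand: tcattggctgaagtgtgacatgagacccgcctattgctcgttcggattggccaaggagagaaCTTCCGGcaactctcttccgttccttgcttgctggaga
Ndufs3, ETS string, chr2:90904722-90904821, minus strand: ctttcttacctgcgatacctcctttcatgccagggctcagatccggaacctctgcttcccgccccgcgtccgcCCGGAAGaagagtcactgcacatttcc

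In microglia, 26 OXPHOS genes were higher in R241E than in WT and none was lower. Most of the genes that rose encode accessory subunits. Of the 14 genes listed here as the catalytic and cofactor-binding core, 1 was among them. Of the 84 genes, 78 had enough counts to be tested, and the 6 that did not were Cox4i2, Cox7a1, Cox7b2, Cox8b, Cox8c and Ndufa4l2. Over all 12727 genes tested, 6.04% were called higher and 413 genes were called lower at an adjusted p under 0.05 (edgeR quasi-likelihood test on UMI sums per library, Benjamini-Hochberg over all genes). The median log2 fold change of the OXPHOS genes was 0.47, against -0.0046 over all genes, and 74 of the 78 were positive. For 51 of the 78, both R241E libraries lay above all 3 WT libraries, and for none below them. Among all tested genes, 20.4% had R241E above WT in this way, and 2235 of 12727 had R241E below WT. The count depended on single libraries and on the tool: it was 9 without WT 1, 7 without WT 2, 42 without WT 3 and 13 with DESeq2. In these settings 4.72%, 4.39%, 8.06% and 4.33% of all genes were called higher. Without R241E 1 or R241E 2 the group is a single library, and the median log2 fold change was then 0.53 and 0.42.

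Fewer OXPHOS genes were called when 1 of the 5 microglial clusters was left out. Cluster 7, led by C1qc, C1qb, Ctss and Ly86, held 274 of 1530 R241E microglia and 76 of 3848 WT microglia. Its nuclei also carried more mitochondrial and ribosomal RNA, as set out below. With cluster 7 left out, a setting chosen after the data were seen, 3 of 77 OXPHOS genes were called higher and none lower. Over all genes 5.1% were then called higher, so the count of OXPHOS calls no longer stood above that share. The 3 called genes were Cox7a2, Ndufa4 and Cox5b. At an unadjusted edgeR p under 0.05, 27 of the 77 were higher and none lower. Over all 12237 genes tested, 1302 were higher and 1017 lower at that threshold. Fewer nuclei entered this setting, and the cause of the lower count was not tested. The median log2 fold change was 0.31, against 0.00097 over all genes, and 68 of the 77 were positive. Clusters 1 and 13 also came mostly from R241E nuclei and clusters 16 and 18 mostly from WT nuclei.

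Complex IV carried the calls with the smallest p. Ndufa4, once counted with complex I and now known as a complex IV subunit (chr6:11900372-11907450, GRCm38.p6), was at 84.5 and 91.3 CPM in R241E 1 and R241E 2 and at 35.2, 43.1 and 55.8 CPM in WT 1, WT 2 and WT 3. Its log2 fold change was 0.94 (SE 0.16, edgeR adjusted p = 0.00106). Cox7a2, the widely expressed isoform of its subunit (chr9:79755241-79771422), was at 73.8 and 76.8 CPM in R241E against 31.5, 38.7 and 47.1 CPM in WT. Its log2 fold change was 0.91 (SE 0.15, edgeR adjusted p = 0.00109). Neither gene's groups overlapped, and WT 3 was the WT library nearest to R241E for both. Cox5b, a zinc-binding structural subunit (chr1:36691487-36693388), was at 44.9 and 60.9 CPM in R241E against 20.6, 22.6 and 31.2 CPM in WT. Its log2 fold change was 1.03 (SE 0.19, edgeR adjusted p = 0.00233). Ndufa4 and Cox5b were called under all 17 other settings of the microglial comparison and Cox7a2 under 16 of them.

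In all, 7 of the 14 complex IV genes tested were called higher. The other 4 were Cox4i1, Cox7b, Cox8a and Cox6c, with log2 fold changes of 0.58, 0.53, 0.55 and 0.53. Cox6a2, the isoform known from striated muscle, had the largest log2 fold change of the complex at 1.52 (SE 0.47). It was at 4.71 and 7.61 CPM in R241E against 1.21, 2.31 and 2.10 CPM in WT, and it was not called (edgeR adjusted p = 0.0586). Only 46 of its UMIs came from microglia. The complex IV genes not called ranged from 0.31 for Cox7c to 1.52, so all 14 were positive, with a median of 0.54.

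Complex V followed the same direction. Atp5g1 and Atp5g3, 2 of the genes that encode the identical c subunit of the rotating ring, rose by 0.76 and 0.78 on the log2 scale. Atp5g1 was at 53.7 and 54.7 CPM in R241E against 29.1, 27.4 and 38.4 CPM in WT (edgeR adjusted p = 0.00654). Atp5g3 was at 55.9 and 65.7 CPM in R241E against 27.9, 32.7 and 42.3 CPM in WT (edgeR adjusted p = 0.00705). The third c subunit gene, Atp5g2, had a log2 fold change of 0.46, overlapping groups and an edgeR adjusted p of 0.1. Atp5mpl and Atp5k, small proteins of the membrane part, were called with 0.99 and 0.63. Atp5d of the central stalk was called with 0.88, Atp5h of the peripheral stalk with 0.73 and Atp5l, which takes part in the dimer, with 0.49. Atp5b, the catalytic beta subunit, was at 70.4 and 83.0 CPM in R241E against 43.7, 47.7 and 65.4 CPM in WT, and its log2 fold change of 0.51 was not called (edgeR adjusted p = 0.0636). Atp5a1, the alpha subunit that alternates with beta in the same ring, had a log2 fold change of 0.0056 (SE 0.12) and overlapping groups.

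Complex I held 11 called genes of 35 tested, with a median log2 fold change of 0.37. The largest change was in Ndufs6, a zinc-containing accessory subunit, at 15.1 and 11.8 CPM in R241E against 5.26, 5.30 and 6.60 CPM in WT. Its log2 fold change was 1.25 (SE 0.29, edgeR adjusted p = 0.01). Ndufa5, an accessory subunit of the arm that protrudes into the matrix, was at 40.8 and 38.8 CPM in R241E against 20.6, 17.8 and 27.0 CPM in WT, with a log2 fold change of 0.87 (edgeR adjusted p = 0.00696). The accessory subunits Ndufb5, Ndufb6, Ndufb8, Ndufc1, Ndufc2, Ndufa2, Ndufa11 and Ndufs5 were also called, with log2 fold changes from 0.65 in Ndufs5 to 0.96 in Ndufb6. The core subunit that was called was Ndufs7, which carries the last iron-sulfur cluster before ubiquinone. It was at 38.3 and 40.8 CPM in R241E against 24.7, 24.9 and 27.0 CPM in WT, with a log2 fold change of 0.60 (edgeR adjusted p = 0.025).

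Other core subunits of complex I lay closer to 0. Ndufs1, the largest of them, was at 64.4 and 55.4 CPM in R241E against 64.7, 64.3 and 65.7 CPM in WT (log2 fold change -0.11, SE 0.13). Ndufs3, Ndufs8, Ndufv1 and Ndufv2 had log2 fold changes of 0.28, 0.099, 0.18 and 0.19, none of them called. Ndufs4, an accessory subunit with the longest gene of those tested, was at 113.4 and 121.8 CPM in R241E against 121.7, 110.0 and 112.8 CPM in WT. Its groups overlapped.

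None of the 4 complex II genes was called, and none reached an unadjusted p under 0.05; DESeq2 called none either. Sdha, the flavoprotein that oxidises succinate, was at 107.7 and 96.2 CPM in R241E against 97.4, 95.2 and 111.0 CPM in WT (log2 fold change 0.0077, SE 0.12). Sdhc, a membrane anchor, was at -0.0013 (SE 0.16). Sdhb and Sdhd had log2 fold changes of 0.22 and 0.32. In complex III all 8 genes were positive and 1 was called, Uqcrh, the hinge protein at the cytochrome c site. Uqcrh was at 48.1 and 57.4 CPM in R241E against 32.4, 26.3 and 40.2 CPM in WT (log2 fold change 0.65, edgeR adjusted p = 0.0309). Uqcrfs1, the Rieske iron-sulfur protein, had the largest log2 fold change of the complex, 0.65 (SE 0.20), and was not called (edgeR adjusted p = 0.0531).

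Counted together, 1 of 14 core subunits and 25 of the 64 other genes tested were called higher. The core list held genes of complexes I, II, III and V and none of complex IV. The c subunit genes and Atp5d counted among the others. Their median log2 fold changes were 0.18 and 0.51, and these shares were not compared by a test. The core genes were also longer, with a median span of 9598.5 bases in RefSeq against 6819.5 bases for the others. Over all genes with a span, the median log2 fold change fell from 0.12 in genes of at most 5000 bases to -0.046 in those over 100000 bases, and 10.8% of the former and 5.70% of the latter were called higher. Within the spans of at most 5000 bases the 24 OXPHOS genes had a median of 0.55, and within those from 5000 to 10000 bases the 32 OXPHOS genes had a median of 0.53. The median was lower in longer OXPHOS genes. It was 0.31 in the 12 from 10000 to 20000 bases, 2 of them called. In the 9 from 20000 to 50000 bases it was 0.19, with 0 called. The parts of gene length and of complex in the difference between core and other subunits were not tested. Of the isoform genes, 7 of the 13 tested were called, all of them widely expressed forms. The restricted forms tested were Cox6a2 and Cox6b2, with 46 and 45 microglial UMIs, so low counts largely set which forms could be called. The 10 OXPHOS genes that the study's list of disease-associated microglia genes holds had a median of 0.50, with 3 called, and the 68 others tested a median of 0.47, with 23 called.

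**Figure D1:**
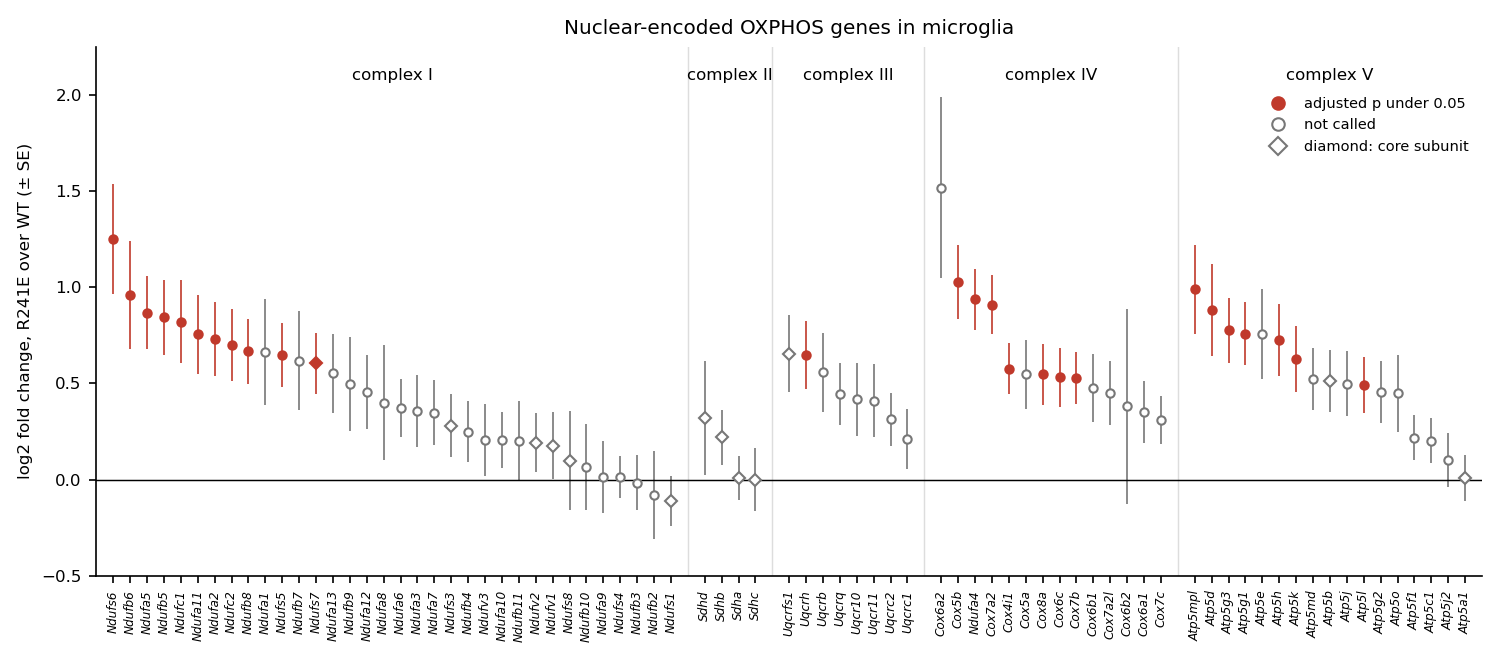
Log2 fold change (y axis, ± SE) of 77 of the 78 tested OXPHOS genes in microglia, R241E over WT, by complex (x axis, genes in order of their value). The 26 filled red points were called and all lie above 0. Diamonds are core subunits, and 1 of them is filled.

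**Figure D2:**
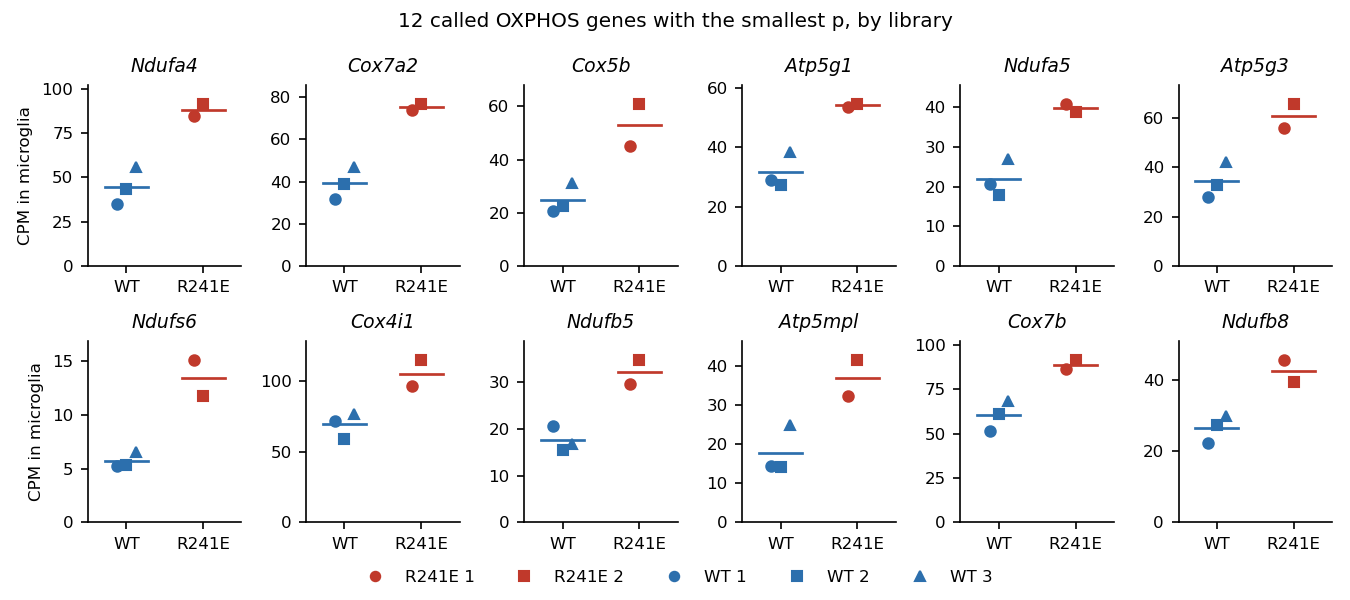
CPM in microglia (y axis, from 0) in each library for the 12 called OXPHOS genes with the smallest p. Points are libraries and lines are group means. In all 12 panels both R241E libraries lie above the 3 WT libraries.

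Summed over the 84 genes, OXPHOS took 3820 and 4088 CPM of the microglial UMIs in R241E 1 and R241E 2, and 2690, 2714 and 3354 CPM in WT 1, WT 2 and WT 3. This gave 3954 ± 189 (SD, n = 2) for R241E against 2920 ± 377 (SD, n = 3) for WT. With 2 libraries against 3, an exact two-sided permutation test cannot go below a p of 0.1, so the sum was not tested. Other RNAs moved with it. The mitochondrial-genome genes took 901 and 940 CPM in R241E and 623, 549 and 673 CPM in WT, and 9 of the 11 tested were called higher, with a median log2 fold change of 0.62. One of them, mt-Co1 (a complex IV subunit), was at 301 and 286 CPM in R241E and 188, 178 and 224 CPM in WT. The genes for cytosolic ribosomal proteins took 6684 and 8323 CPM in R241E and 3510, 3818 and 5368 CPM in WT, and 56 of 79 were called higher, with a median of 0.78. Malat1, an RNA held in the nucleus, was at 37410 and 37850 CPM in R241E against 40570, 46880 and 47110 CPM in WT (log2 fold change -0.27, edgeR adjusted p = 0.0721). The part of carried-over RNA in the OXPHOS calls can be read only as far as the following values go.

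In cluster 7, the share of OXPHOS was 6086 CPM in R241E 1 and 5730 CPM in R241E 2, and that of the mitochondrial genome 2198 and 1939 CPM. Malat1 there was at 32100 and 31630 CPM. The 22 nuclei of WT 2 and 50 of WT 3 in cluster 7 were at 3828 and 4845 CPM of OXPHOS and 1531 and 1360 CPM of mitochondrial-genome RNA, and WT 1 had 4 nuclei there. Without cluster 7, summed OXPHOS was 3427 and 3545 CPM in R241E and 2662, 2694 and 3284 CPM in WT, so the groups still did not overlap but WT 3 came close. The mitochondrial-genome genes were then at 675 and 609 CPM in R241E against 553, 531 and 641 CPM in WT, which overlapped, and 0 of 11 were called by edgeR, with 1 at an unadjusted p under 0.05. Of the ribosomal protein genes 21 of 78 were still called higher. A cluster of 346 nuclei led by C1qc, C1qb, Ctss and C1qa also formed when OXPHOS and mitochondrial-genome genes were kept out of the clustering.

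Nuclei without any mitochondrial-genome UMI gave a second view. They numbered 186 and 137 in R241E and 297, 467 and 504 in WT. Their summed OXPHOS was 3562 and 3908 CPM in R241E and 2692, 2870 and 3386 CPM in WT, again with no overlap. The median log2 fold change was 0.31 over 75 genes, 56 of which were positive, and 3 genes were called higher, Ndufa4, Ndufb5 and Cox5b. Over all genes 3.53% were called higher in these nuclei, so this count too was near the background. At an unadjusted edgeR p under 0.05, 12 of the 75 were higher and 2 lower. Over all 8956 genes tested, 781 were higher and 612 lower at that threshold. Ribosomal protein genes in the same nuclei had a median of 0.58. Of the complex IV genes 12 could be tested there, against 14 in all microglia, and the 12 were positive with a median of 0.40. Complex III had 4 of 8 positive and a median of -0.0044.

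**Figure D3:**
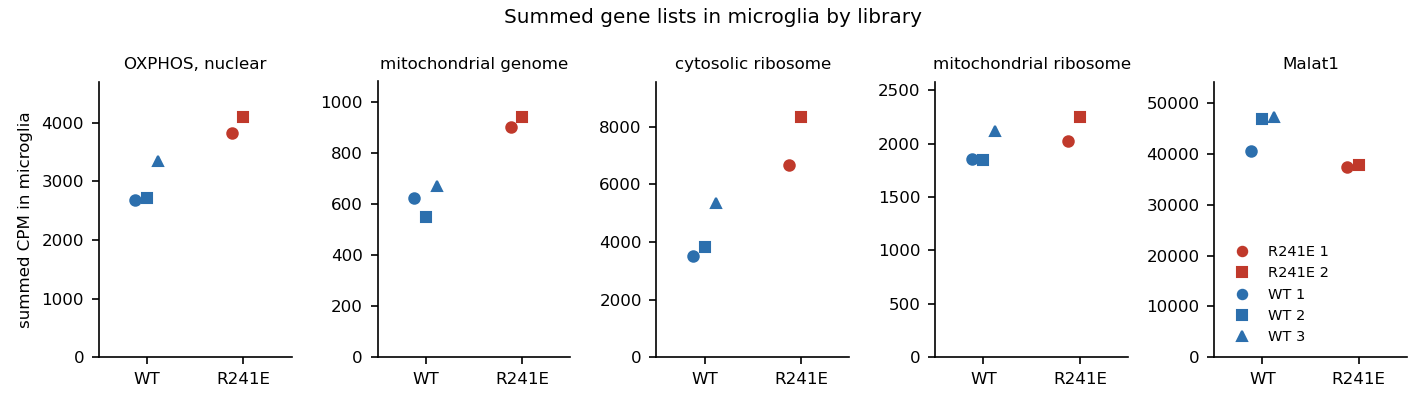
Summed CPM in microglia (y axes, each from 0 and on its own scale) of the OXPHOS genes, the mitochondrial-genome genes, the cytosolic and the mitochondrial ribosomal protein genes, and Malat1, by library. OXPHOS, mitochondrial-genome and cytosolic ribosomal sums are higher in both R241E libraries than in all WT libraries, Malat1 is lower, and the mitochondrial ribosomal sums overlap.

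Per nucleus, the difference amounted to a small number of molecules. After each microglial nucleus was thinned to 1000 UMIs, which left out 9 to 64 shallower nuclei per library, nuclei held on average 4.0 and 4.28 OXPHOS UMIs in R241E and 2.86, 2.88 and 3.45 in WT. The median after thinning was 3 in R241E 1, 4 in R241E 2 and 3 in each WT library. Before thinning the averages were 12.1 and 11.3 in R241E and 7.19, 8.00 and 7.71 in WT. Nuclei with 5 or more OXPHOS UMIs after thinning made up 32.8% and 38.2% in R241E and 18.6%, 18.6% and 27.7% in WT. Interferon-stimulated genes mark the response that cGAS starts, and in neither R241E library did the nuclei with the most interferon UMIs hold the most OXPHOS UMIs. Within R241E, thinned nuclei with at most 1 UMI of the study's interferon list held 4.31 and 4.36 OXPHOS UMIs, those between held 3.81 and 4.54, and those with 4 or more held 3.80 and 3.88. The group with the highest value was thus the low one in R241E 1 and the middle one in R241E 2. In WT, nuclei with at most 1 interferon UMI held 2.86, 2.89 and 3.46, and few WT nuclei, 9 to 15 a library, had 4 or more. So R241E nuclei low in interferon UMIs were above WT nuclei low in them in all libraries. The same low nuclei of R241E held 1.26 and 1.21 mitochondrial-genome UMIs, against 0.62, 0.60 and 0.71 in WT.

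Clusters 1 and 16 had at least 27 thinned nuclei in every library. In cluster 1 thinned nuclei held 3.55 and 3.48 OXPHOS UMIs in R241E and 2.41, 2.76 and 2.88 in WT, with 0.69 and 0.67 mitochondrial-genome UMIs against 0.37, 0.58 and 0.66. In cluster 16 they held 3.62 and 4.06 in R241E and 2.98, 3.05 and 3.66 in WT, which overlapped. Thinned nuclei of cluster 7 held more, 6.71 and 6.11 OXPHOS UMIs in R241E. The 21 of WT 2 and 49 of WT 3 there held 3.71 and 5.265. Clusters were drawn from the same expression values, so these are descriptions.

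Few genes of the other mitochondrial lists were called. Over all 12727 genes tested in microglia, 6.04% were called higher and 413 genes were called lower. At an unadjusted edgeR p under 0.05, 1508 were higher and 1135 lower. Of 78 genes for mitochondrial ribosomal proteins none was called by edgeR, 3 had an unadjusted p under 0.05, and the median log2 fold change was 0.17. Of 46 assembly factors of the complexes, Uqcc2 (complex III assembly) was called higher, at 0.74, and Cox16 (complex IV assembly) lower, at -0.33, with a median of 0.016. Among 20 regulators of mitochondrial gene expression, 8 were positive and the median was -0.057. Of these regulators Ppargc1b, a coactivator of nuclear-encoded mitochondrial genes, was called higher at 0.91. It was at 16.6 and 18 CPM in R241E against 10.9, 7.38 and 9.30 CPM in WT (edgeR adjusted p = 0.0321).

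In the tricarboxylic acid cycle list 1 of 24 genes was called, Acod1, which makes itaconate and is known as an interferon and inflammation target. A single call in a list of this size lies near the 6.04% called higher over all genes. It was at 5.65 and 4.15 CPM in the R241E libraries, while no WT library held a microglial UMI of it (edgeR adjusted p = 0.000647). In the glycolysis list Aldoc, an aldolase, was called higher at 0.77 and Slc2a5, a fructose transporter, lower at -0.41, of 25 tested. That list leaned higher as a whole, with 19 of the 25 positive and a median log2 fold change of 0.26. At an unadjusted edgeR p under 0.05, 10 of its genes were higher and 1 was lower, against 1508 higher and 1135 lower of all 12727 genes. Sqor, which passes electrons from sulfide to ubiquinone, was called lower at -0.92, the one call among 24 genes for other electron carriers and ATP exchange. It was at 32.7 and 44.3 CPM in R241E against 69.1, 75.9 and 63.0 CPM in WT. The 3 proteasome genes called of 38 were the interferon-inducible immunoproteasome subunits Psmb9, Psmb8 and Psmb10, with log2 fold changes of 1.54, 1.27 and 0.85.

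In the 6 other classes with 20 or more nuclei in each library no OXPHOS gene was called, by edgeR or by DESeq2. The shares of all genes called below are at an adjusted p under 0.05. They are no background for the counts at an unadjusted p, for which no share of all genes is given. In astrocytes 68 were tested, with a median log2 fold change of 0.35 and 11 at an unadjusted p under 0.05, and 0.444% of all genes were called. In neurons 70 were tested, with a median of 0.48 and 14 at an unadjusted p under 0.05, and 0.0112% of all genes were called. In oligodendrocytes 53 were tested, with a median of 0.41 and 10 at an unadjusted p under 0.05, and 0.285% of all genes were called. All of these unadjusted values were in the direction of higher in R241E. In mural cells 55 were tested, with a median of 0.28 and 3 at an unadjusted p under 0.05, and 0.0% of all genes were called. In fibroblasts 57 were tested, with a median of 0.056 and 0 at an unadjusted p under 0.05, and 0.0172% of all genes were called. In border-associated macrophages 21 were tested, with a median of -0.061 and 2 at an unadjusted p under 0.05, and 0.937% of all genes were called.

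These medians depended on single libraries. In neurons the median was 0.30 without R241E 2, 0.65 without WT 3 and 0.68 without R241E 1. In oligodendrocytes it was 0.22 without WT 1 and 0.68 without WT 3. In mural cells it was 0.051 without WT 2, 0.15 without R241E 2, 0.46 without WT 3 and 0.49 without R241E 1. In fibroblasts it turned to -0.14 without R241E 1 and to -0.066 without WT 2, and it was 0.15 without R241E 2 and 0.11 without WT 1. In border-associated macrophages it turned to 0.21 without R241E 1, 0.051 without R241E 2 and 0.055 without WT 1, and to 0.26 over 78 genes with no filter on low counts, so it had no settled sign. In astrocytes it stayed between 0.30 and 0.42 with single libraries left out. It was 0.44 there with no upper limits on nuclei and 0.14 over 18 genes with nuclei thinned to 1000 UMIs.

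The values that came closest to a call outside microglia were in astrocytes and neurons. Uqcr10, a small subunit of complex III, was at 36.8 and 45.8 CPM in R241E astrocytes and at 12.2, 7.69 and 15.6 CPM in WT astrocytes (edgeR adjusted p = 0.123). Cox6c, a complex IV subunit, was at 85.6 and 70.7 CPM in R241E neurons and at 25.2, 34.4 and 27.6 CPM in WT neurons (edgeR adjusted p = 0.175). R241E 1 gave 173 of the 344 astrocytes of cluster 4 and WT 3 gave 112 of the 227 of cluster 22, and neurons of clusters 19 and 24 came mostly from WT 1. Their part in these values was not tested.

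The genotype effect in microglia was also compared with that in another class within 1 model. No OXPHOS gene was called for a difference from astrocytes, oligodendrocytes, neurons or border-associated macrophages, with 4, 2, 4 and 8 genes at an unadjusted p under 0.05. Over all genes, 1.01%, 0.72%, 0.1% and 0.742% were called at an adjusted p under 0.05 in these 4 comparisons. These shares are no background for the unadjusted counts. The median difference of the OXPHOS genes, microglia minus the other class, was 0.11, 0.013, 0.059 and 0.23 on the log2 scale, against 0.016, -0.018, 0.095 and 0.0073 over all genes. The change in microglia was thus not shown to be particular to them, and the other classes had fewer nuclei and wider errors.

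Summed OXPHOS in the other classes moved in part with the libraries. In oligodendrocytes it was 3125 and 3450 CPM in R241E and 1902, 2301 and 3031 CPM in WT, and in neurons 3017 and 3899 CPM in R241E and 2186, 2319 and 3005 CPM in WT. In both classes, as in microglia, WT 3 lay well above WT 1 and WT 2. In astrocytes it was 3754 and 4018 CPM in R241E and 3181, 2989 and 3275 CPM in WT. WT 1 astrocytes held 1693 CPM of mitochondrial-genome RNA, against 431 to 501 CPM in the other 4 libraries. In fibroblasts the sums were 4231 and 3688 CPM in R241E and 4350, 3614 and 4367 CPM in WT, which overlapped.

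The level of OXPHOS RNA also differed between cell classes. Classes are given over the libraries with at least 20 nuclei, and the comparison between them is a description, since clusters were made from expression and 11 OXPHOS genes were among the variable genes used. Lymphocytes stood apart, with 13420, 16110 and 16540 CPM in 3 libraries, and no library of another class reached them. They also had the largest share of cytosolic ribosomal protein RNA, from 70800 to 116400 CPM. Cells named monocyte or neutrophil, a single cluster whose 4 leading genes were the MHC class II genes Cd74, H2-Aa, H2-Eb1 and H2-Ab1, ahead of its markers Ccr2, S100a8 and S100a9, followed with 5659 to 8896 CPM (4 libraries) and mural cells with 4182 to 7343 CPM (5 libraries), and these ranges overlapped. Fibroblasts ranged from 3614 to 4367 CPM, astrocytes from 2989 to 4018, microglia from 2690 to 4088 and border-associated macrophages from 2861 to 3538, each overlapping the next. Neurons, from 2186 to 3899 CPM, and oligodendrocytes, from 1902 to 3450 CPM, had the lowest means of the 7 classes with 20 nuclei in all libraries, and they overlapped each other and microglia. The mitochondrial-genome genes were at 903.9 to 1775 CPM in lymphocytes and at 736.5 to 1314 CPM in the cells named monocyte or neutrophil. They were at 549.5 to 939.6 CPM in microglia and at 311.5 to 635.8 CPM in mural cells. Neurons and oligodendrocytes were the cells that the sort was meant to remove. Of the 82 genes with at least 20 UMIs, 69 had their highest mean in lymphocytes. Among the 7 classes with 20 nuclei in all libraries, 66 had theirs in mural cells and 1, Sdhd, in microglia.

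**Figure D4:**
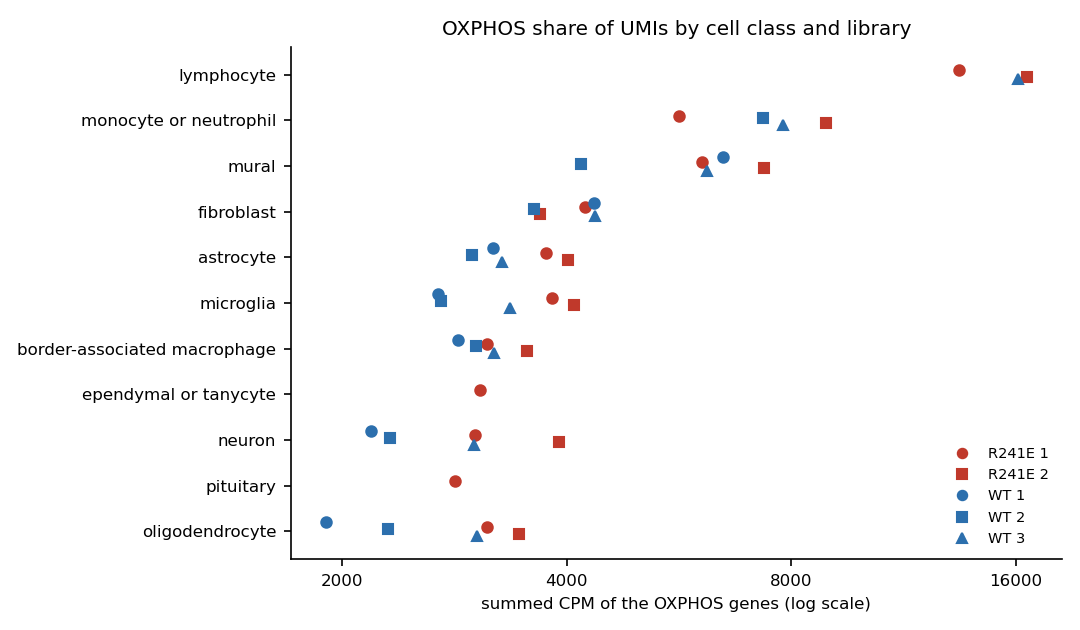
Summed CPM of the 84 OXPHOS genes (x axis, log scale) by cell class (y axis, ordered by mean) and library, for classes with at least 20 nuclei in the library. The lowest lymphocyte library is at 13420 CPM and the highest library of any other class at 8896 CPM.

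The share of each complex in the OXPHOS UMIs also varied between classes. Complex I took 36.1% of the OXPHOS UMIs in microglia, 35.4% in mural cells and 39.1% in neurons, as means over 5 libraries. Complex II took 5.90% in microglia (range 4.76% to 7.08%) and 2.38% in lymphocytes (range 1.91% to 2.81%, 3 libraries), which did not overlap. Complex IV took 29.9% in mural cells (range 28.5% to 31.1%) and 23.8% in microglia (range 22.3% to 25.7%), which did not overlap either.

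Tissue isoforms made up part of the complex IV share of mural cells. Ndufa4l2, the hypoxia-inducible relative of Ndufa4 (chr10:127509274-127517154), was at 304.9 and 513.1 CPM in R241E mural cells and at 493.2, 244.9 and 343.4 CPM in WT mural cells, and 402 of its 441 UMIs came from this class. In microglia it was at 0.23 to 1.26 CPM, and in fibroblasts, the next highest class, at 0 to 19.3 CPM. Cox4i2, the isoform of the regulatory complex IV subunit known from lung and oxygen-sensing cells (chr2:152753916-152765039), was at 138.4 and 219.4 CPM in R241E mural cells and at 311.5, 131.4 and 181.0 CPM in WT mural cells. Of its 222 UMIs, 193 came from mural cells, and in astrocytes it was at 0 to 3.90 CPM. On average, Ndufa4l2 and Cox4i2 took 379.9 and 196.3 CPM of the 1814 CPM of complex IV in mural cells. Without these 2 genes the mean share of complex IV there would not lie above that in microglia. Neither gene was among the markers that named the class. For both, the genotypes overlapped in mural cells, with log2 fold changes of 0.23 (SE 0.25) and -0.14 (SE 0.31) and edgeR adjusted p-values that missed the threshold.

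The common counterparts were spread more evenly. Cox4i1, the general form of the same regulatory subunit, had means from 63.6 CPM in neurons to 110.6 CPM in mural cells over the 7 classes with all libraries, and Ndufa4 from 50.1 CPM in border-associated macrophages to 105.2 CPM in fibroblasts. Cox6b2, described in testis, was at 16.3 to 52.4 CPM in fibroblasts and 12.5 to 40.9 CPM in mural cells, against 1.61 to 4.15 CPM in microglia, so the ranges of both classes lay above that of microglia. Cox7b2 was at 3.85 to 21.5 CPM in astrocytes and at 0.40 to 0.94 CPM in microglia. The muscle forms Cox7a1 and Cox8b had 30 and 3 UMIs in all kept nuclei, and Cox8c, a testis form, had none. A count of 0 limits the UMIs seen here and does not show that the gene is off.

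**Figure D5:**
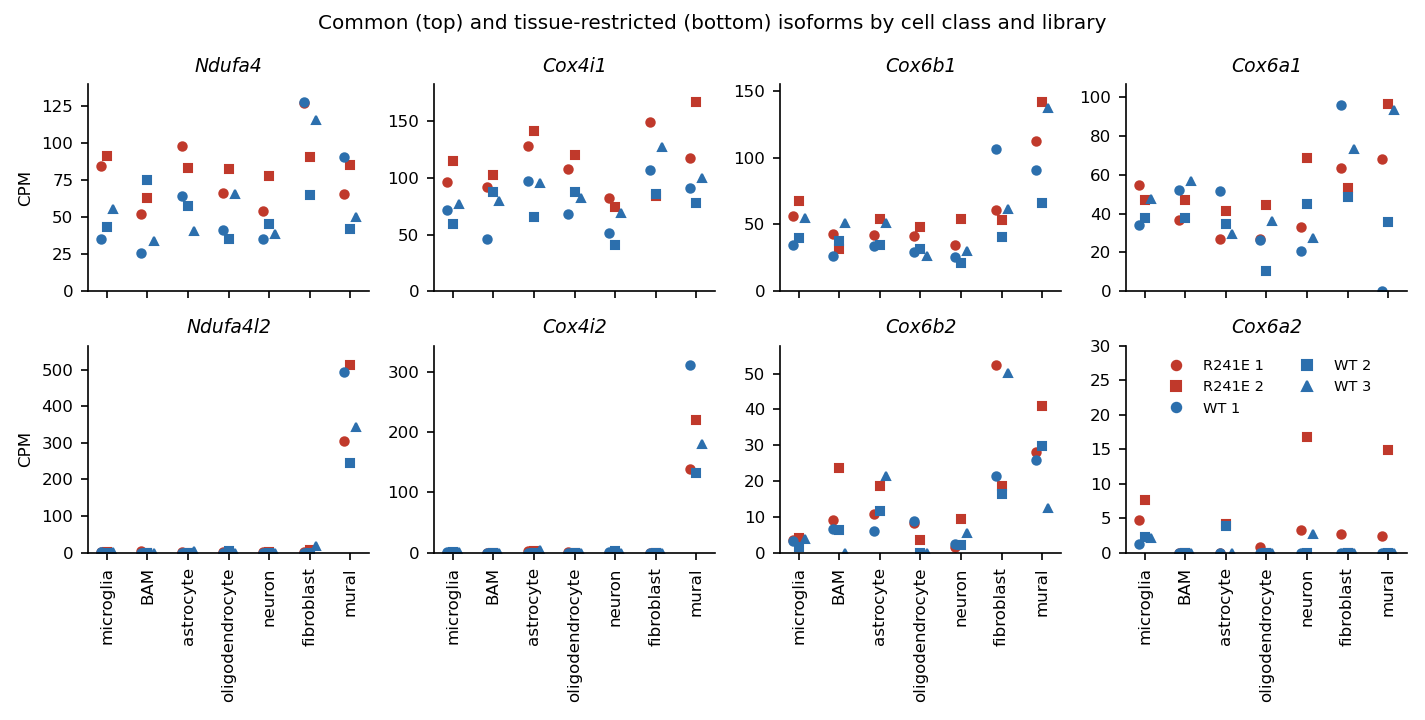
CPM (y axis, from 0, own scale in each panel) of 4 common isoform genes (top) and 4 tissue-restricted ones (bottom) by cell class (x axis, BAM for border-associated macrophages) and library. Ndufa4l2 and Cox4i2 lie at 131.4 CPM or more in all 5 libraries of mural cells and at 19.3 CPM or less in the other classes shown.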

How the data were processed

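The deposited files were UMI count matrices per library, which the authors made with Cell Ranger 7.0.0 and mm10. Whether intronic reads were counted is not given in the sources used here. Nuclei with 200 to 4500 genes, at most 10000 UMIs and at most 5% mitochondrial UMIs were kept and clustered with scanpy 1.11.5 (3000 variable genes, 30 components, Leiden resolution 1), and clusters were named from marker genes. Scrublet called 42 of 9505 nuclei (0.442%), too few to count as working, so doublets were limited by the upper bounds and in an alternative without the 156 top-scoring nuclei. Counts were summed per class and library and tested with edgeR 4.0.16 (quasi-likelihood, TMM, filterByExpr, R 4.3.3) for R241E against WT, with Benjamini-Hochberg adjustment over all genes tested; DESeq2 1.42.0 was an alternative. The unit tested was the library. The labels list each library as a sample of its own, and p-values measure the spread between these libraries. CPM values are the class's counts scaled to 1000000 of its UMIs and are not corrected for length, so genes are not ranked against each other. Intervals and spreads cover these libraries only. The scripts were tested on simulated counts. Named were the called OXPHOS genes, core subunits, isoform genes, the largest change per complex, and, for other lists, the 3 called genes with the smallest p. The OXPHOS genes, lists and tests were chosen with earlier results of these data known. The text of the study names the controls in more than 1 way, and the sample titles were followed. Some genes that entered the tests and counts are not reported here by name.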

Additional observations from a re-analysis of the deposited data

How the results depend on the processing

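The count of OXPHOS genes called higher in microglia was 26 and depended on the setting, while the median log2 fold change stayed between 0.31 and 0.62. Leaving out 1 library gave 7 to 42 calls: 9 without R241E 1, 9 without R241E 2, 9 without WT 1, 7 without WT 2 and 42 without WT 3, with 3.15% to 8.06% of all genes called higher. The count was 13 with the DESeq2 Wald test (4.33% of all genes called higher) and 15 with no upper limits on nuclei (5.71%). It was 17 at Leiden resolution 0.5 (5.71%) and 10 with nuclei thinned to 1000 UMIs (4.67%). The count was 3 of 75 in nuclei without a mitochondrial-genome UMI (3.53% of all genes called higher). Without microglial cluster 7 it was 3 of 77 (5.1% of all genes). Both of these counts were near the share of all genes. Without cluster 7 the difference of the summed CPM, R241E minus WT, was 605.8 instead of 1034. DESeq2 size factors, library totals, no filter on low counts, leaving out top Scrublet scores and clustering without OXPHOS and mitochondrial-genome genes gave 25 to 33. In these settings 4.24% to 6.18% of all genes were called higher. Fewer nuclei entered some of these settings, and the cause of the lower counts was not tested beyond the values given. With the replicate number as a block the count was 51, with 9.83% of all genes called higher. The correlations of same-numbered deviations were 0.0994 and -0.0178. They are not separate checks, since the deviations of the 2 R241E libraries from their mean mirror each other. Whether the numbers pair the libraries was thus not settled. In this fit WT 3 is alone in its block and does not enter the genotype contrast. No result is drawn from the block. Outside microglia, calls appeared with no filter on low counts (2 in astrocytes, Uqcr10 and Ndufa1, and 1 in neurons, Cox6c) and with the replicate block (1 in oligodendrocytes, Cox5b). Without WT 3, 1 gene (Cox8a) was called for the difference of microglia from astrocytes, so the leave-one-out range there was 0 to 1.

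Signs were followed gene by gene only for the named genes, and those that turned were core subunits, of which Ndufs7 was called in all microglia. Core subunits were named whatever their change, and most other genes because they were called, were isoform genes or had the largest change. That the genes that turned were core subunits followed largely from this choice. Of the other subunits, 62 of 64 were positive in all microglia, 58 of 63 without cluster 7 and 48 of 61 in nuclei without a mitochondrial-genome UMI. Sdhc turned to 0.0015 with DESeq2 size factors, 0.017 with library totals, 0.097 when thinned, 0.00046 at resolution 0.5 and 0.00028 without cluster 7, and to between 0.0053 and 0.062 without R241E 2, WT 1 or WT 2, within -0.067 to 0.062 over all single libraries left out. Atp5a1 turned to -0.0053 without the filter, -0.016 with the block, -0.0025 without top Scrublet scores, -0.12 when thinned, -0.0045 at resolution 0.5 and -0.038 without cluster 7, and to between -0.053 and -0.0015 without R241E 2, WT 2 or WT 3, within -0.053 to 0.080 over all single libraries left out. Sdha turned to -0.0039 without the filter, -0.33 in nuclei without a mitochondrial-genome UMI, -0.011 without cluster 7 and to between -0.099 and -0.014 without R241E 1, WT 1 or WT 2, within -0.099 to 0.077 over all single libraries left out. In nuclei without a mitochondrial-genome UMI, Ndufs7 was at -0.070, Sdhd at -0.034 and Ndufs8 at -1.69. When thinned, Ndufs8 was at -0.34. Without R241E 1, Ndufs3 was at -0.052 and Ndufs8 at -0.69, without R241E 2 Sdhd was at -0.050, and without cluster 7 Ndufs8 was at -0.026. With single libraries left out, the ranges reached 0.46 for Ndufs3, 0.79 for Sdhd and 0.42 for Ndufs8.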
